A study of Bos taurus with 57 samples.

Results

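The testes libraries of Holstein-Friesian bull calves reared on either of 2 planes of nutrition, low or high, were compared across all genes. All libraries with the tissue label testes were taken, which gave 18 of the 57 libraries of the series, 10 from the high plane and 8 from the low plane. The other libraries came from the anterior pituitary and the arcuate nucleus of the hypothalamus. All calves were male and of 1 breed, and were slaughtered at 126 days of age. Calves on the high plane were given more milk replacer and concentrate to appetite, whereas milk replacer and concentrate were both restricted on the low plane. The sample labels give growth of 1.08 kg per day for the high plane and 0.5 kg per day for the low plane, and the design text gives 1.2 kg per day as the aim for the high plane. RNA came from testicular parenchyma, the whole tissue, and the libraries were single-end mRNA libraries. One high plane library is titled A48, with the letter of the pituitary libraries, while the header of its counts reads B48. It was kept as a testes library.

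The testis of a calf holds seminiferous tubules, in which Sertoli cells surround immature germ cells, and Leydig cells between the tubules that make androgens from cholesterol. LH from the pituitary acts on the Leydig cells and FSH acts on the Sertoli cells, and an early rise of LH in calfhood is known to precede puberty. Germ cells transcribe many genes that other tissues use little, so genes enriched in the testes are a usual landmark of this tissue. The counts are listed by Ensembl identifier and the files do not pair identifiers with names, so the genes below are described by direction, abundance and tissue, and markers of Sertoli, Leydig and germ cells were not analysed here.

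Each gene has a whole number of reads in each library. The high plane libraries held 14963221 to 26067610 reads on genes and the low plane libraries 8586953 to 22903487. The mean log2 total was 0.47 lower on the low plane (exact permutation test, two-sided, p = 0.0242), and this call was lost without B15 (p = 0.0542), B20 (p = 0.0542) or B26 (p = 0.0521). Each of the 18 libraries had its highest correlation of log2 CPM (CPM are reads of a gene relative to the scaled size of its library) with another testes library, at r = 0.971 to 0.985 across genes, against at most 0.803 to 0.863 with a library of another tissue. A48 was placed no differently, at 0.984 and 0.806. In B2, B21, B15 and B42 the median correlation with the other testes libraries was 0.760, 0.784, 0.801 and 0.814. These medians lay below the highest single correlation of each with a library of another tissue, at 0.863, 0.851, 0.839 and 0.846. The median correlation of each with the libraries of the other tissues was lower than its testes median, at 0.593, 0.608, 0.607 and 0.619. No pair of libraries of a diet agreed within sampling noise, with a chi-square per degree of freedom of at least 19.4. Nothing in the labels says which calf a library came from, so p-values measure the spread between these libraries.

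The testes libraries fell into 2 sets that only partly followed the diet. A library score was computed from 200 genes as their average log2 CPM. The pituitary and arcuate nucleus libraries supplied these genes, which had the largest positive slopes on the main dimension of a scaling of the libraries within diets. The dimension was oriented to rise with the number of genes detected in a library. It correlated with that number at r = 0.753 in the pituitary and 0.565 in the arcuate nucleus. On the high plane the score was 4.19 at its lowest in 9 libraries and 4.98 at its highest, but -0.67 in B42. On the low plane it was 4.55 to 4.81 in B50, B31 and B7 and -1.12 to 1.56 in the other 5. A score above 4 was thus found in 12 libraries and a score below 4 in 6. Genes detected numbered 17671 to 18608 in the low plane libraries below 4 and 18235 in B42. Above 4 they numbered 18695 to 19280 on the high plane and 19055 to 19538 on the low plane. High plane libraries averaged a score of 4.14 ± 1.71 (SD, n = 10), compared with 1.65 ± 2.67 (SD, n = 8) for low plane libraries (exact permutation test, two-sided, p = 0.0368). The call was lost without any 1 of A48, B32, B17, B12, B38, B21, B2, B15, B26 or B20, with p from 0.0501 to 0.0794.

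**Figure D1:**
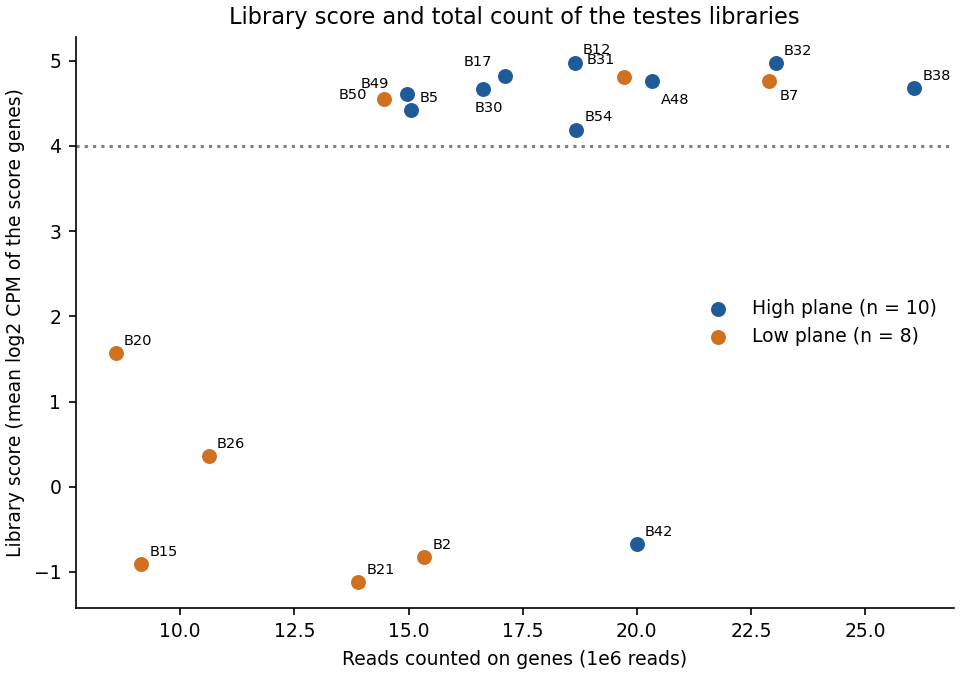
Library score (mean log2 CPM of the score genes) against the total count (reads counted on genes), 1 point per testes library, blue for the high plane and orange for the low plane, with a dotted line at a score of 4. Below the line lie 5 low plane libraries and the high plane library B42, and B7, B31 and B50 of the low plane lie among the high plane.

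Gene expression differed between the diets in both directions, with more genes increased than decreased on the low plane. Of 15310 genes kept by the filter on low counts, 727 had higher counts (4.75%) and 330 lower counts (2.16%) in the low plane calves at a false discovery rate (FDR) under 0.05 in edgeR's quasi-likelihood test, with Benjamini-Hochberg adjustment over all genes tested. The increases were moderate in size, while the decreases reached further. None of the 727 increased genes changed by 4-fold or more, whereas 28 of the 330 decreased genes did. The median log2 fold change, low relative to high, was 0.94 among increased genes and -0.96 among decreased genes, and the extremes were 1.82 and -3.62. The median level of the increased genes was 9.39 CPM and that of the decreased genes 30.7 CPM. Genes under 10 CPM made up 50.9% of the increased, 23.9% of the decreased and 33.7% of all genes tested. In this fit with diet only, genes under 10 CPM were no longer in excess among the increased genes without B42, as the abundance classes below show. More genes were still increased (3233) than decreased (1367) without it. When libraries were scaled by their totals alone, the same direction held with 2025 increased and 311 decreased genes, so that 86.7% of the called genes were increased in place of 68.8%.

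**Figure D2:**
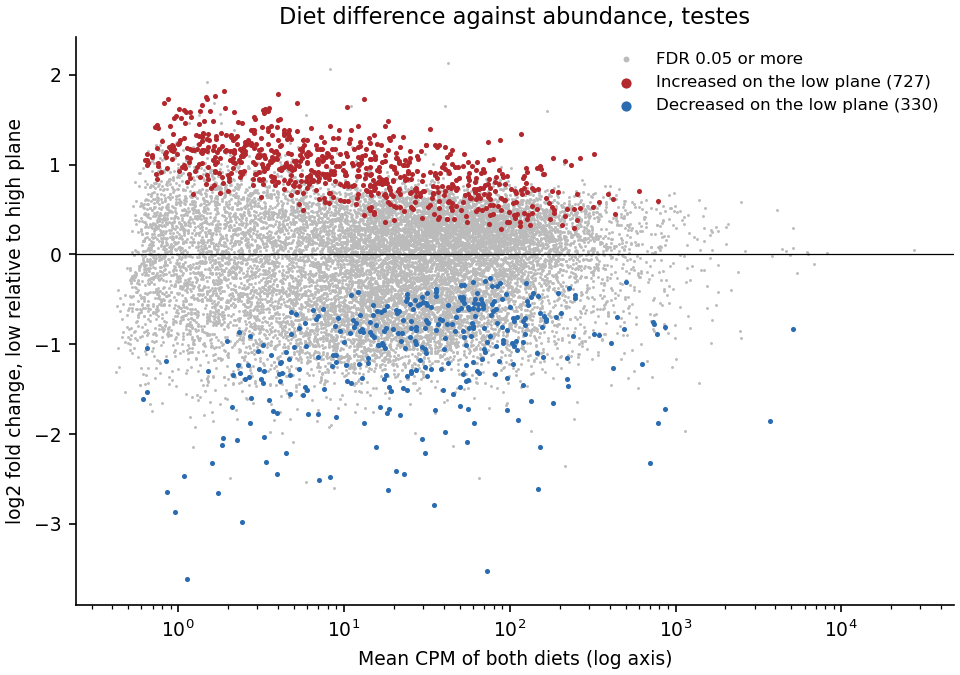
Log2 fold change of the low relative to the high plane against mean CPM of both diets (log axis), 1 point per gene tested, red for the 727 increased and blue for the 330 decreased genes. The decreases reach -3.62 and the increases 1.82, and 63 red and 59 blue points lie at 100 CPM or more.

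Among the 10 increased genes with the smallest p-values, 4 were testes-enriched (defined below) and none was widely expressed. Their log2 fold changes ran from 1.15 to 1.82. Among the 10 such decreased genes, none was testes-enriched and 3 were widely expressed, and their log2 fold changes ran from -3.62 to -0.80. In 8 of these 10 decreased genes, but 1 of the 10 increased genes, no library of one diet overlapped the other diet. Over all genes tested the diets did not overlap in 0.118% (low plane below) and 0.0914% (low plane above), and the 20 genes were picked by p-value, which favours separation. All 20 kept an FDR under 0.05 in edgeR's test with the library score as covariate. With the log2 total count as covariate 1 of the 10 decreased and none of the 10 increased genes did.

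ENSBTAG00000022466, a testes-enriched gene, led the increased genes. It had 0.755, 1.73 and 2.23 CPM (lowest, median and highest) on the high plane and 2.16, 4.59 and 9.04 CPM on the low plane. Only the low plane library B31 lay within the high plane range. High plane calves averaged 1.60 ± 0.514 CPM (SD, n = 10) and low plane calves 4.91 ± 2.14 CPM (SD, n = 8). The gene rose by 1.61 on the log2 scale, with a standard error of 0.27 (FDR 0.0169 by edgeR). Its mean over the libraries of the series was 2.96 CPM in the testes, 0.00400 CPM in the pituitary and 0.0335 CPM in the arcuate nucleus. The next gene, ENSBTAG00000001838, is not particular to the testes, as its mean was higher in the arcuate nucleus (7.43 CPM) than in the testes (3.94 CPM). It had 1.55, 2.34 and 3.65 CPM on the high plane and 3.19, 6.06 and 9.75 CPM on the low plane, and the groups overlapped at their edges. Its log2 fold change was 1.35 with a standard error of 0.23 (FDR 0.0169 by edgeR).

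The gene with the smallest p-value of all, ENSBTAG00000011677, was decreased. On the high plane 9 to 59 reads were counted on it per library, with a median of 46, and on the low plane 0 to 7, with a median of 2. No low plane library reached the lowest high plane library, B42, and 2 low plane libraries had no read. It fell by 3.62 on the log2 scale (standard error 0.50, FDR 0.0120 by edgeR), a size that rests on few reads. ENSBTAG00000031778 followed, with 3.35, 5.27 and 9.06 CPM on the high plane and 1.21, 1.38 and 2.92 CPM on the low plane. The diets did not overlap, and the log2 fold change was -1.62 with a standard error of 0.25 (FDR 0.0169 by edgeR). Both decreased genes had their highest level in the pituitary, at 12.3 and 22.1 CPM. Within the 12 libraries with a score above 4, the log2 fold changes of the increased pair were 1.11 and 0.69, and those of the decreased pair -3.28 and -1.66, with FDR from 0.0826 to 0.157 by edgeR. DESeq2 on the same libraries gave an adjusted p of 0.0262 and 0.0633 for the increased pair and of 1.18e-06 and 0.000123 for the decreased pair.

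**Figure D3:**
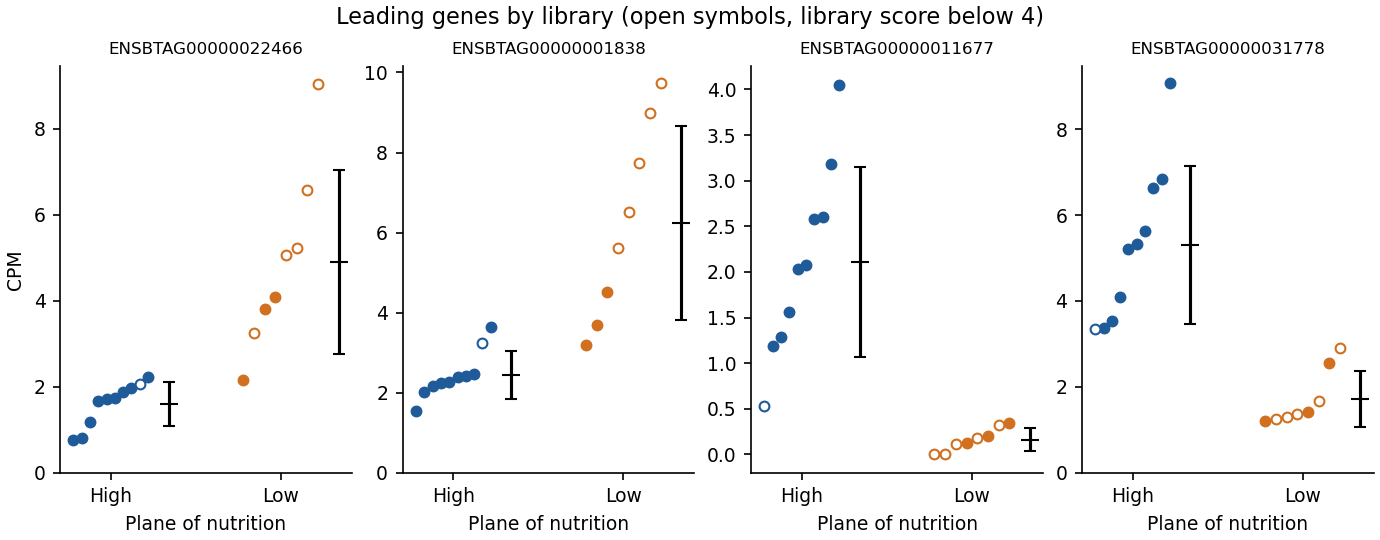
CPM of 4 genes in each testes library by diet (10 high plane, 8 low plane), with bars for the mean ± SD and open symbols for libraries with a score below 4. The decreased genes do not overlap between diets, and in the increased genes the highest low plane values are open symbols.

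The balance of directions varied with abundance. Of 4348 genes with a mean of 1 to 10 CPM, 334 were increased (7.68%) and 73 decreased (1.68%). Of 7922 genes at 10 to 100 CPM, 294 were increased (3.71%) and 192 decreased (2.42%). At 100 CPM or more, 63 of 2221 genes were increased (2.84%) and 59 decreased (2.66%). Among the 819 genes under 1 CPM, 36 were increased (4.4%) and 6 decreased (0.733%). Few reads support such genes, and their log2 fold changes had a median standard error of 0.37, against 0.19 at 100 CPM or more. The order of the increased shares turned without the high plane library B42. They were then 9.84% under 1 CPM, 17.2% at 1 to 10 CPM, 22.3% at 10 to 100 CPM and 29% at 100 CPM or more, where 645 genes were increased and 211 decreased (9.5%). With classes set by the high plane mean alone, 44 genes were increased and 73 decreased at 100 CPM or more. Classes set by 1 of the diets compared favour decreases in the top class by themselves.

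Genes enriched in the testes were increased more often than genes that all 3 tissues express. A gene was called testes-enriched where its mean level in the testes was at least 3 log2 units above both other tissues, and widely expressed where each tissue had at least 1 CPM and the tissue means lay within 1 log2 unit. Of 539 testes-enriched genes, 100 were increased (18.6%) and 20 decreased (3.71%), against 4.75% and 2.16% of all genes. Of 5952 widely expressed genes, 157 were increased (2.64%) and 97 decreased (1.63%). The median log2 fold change was 0.21 in the former and 0.03 in the latter. Genes at least 3 log2 units lower in the testes than in both other tissues were few, and 20 of 251 were increased (7.97%) and 1 decreased. These shares are a description, and no test of the difference between classes was made.

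**Figure D4:**
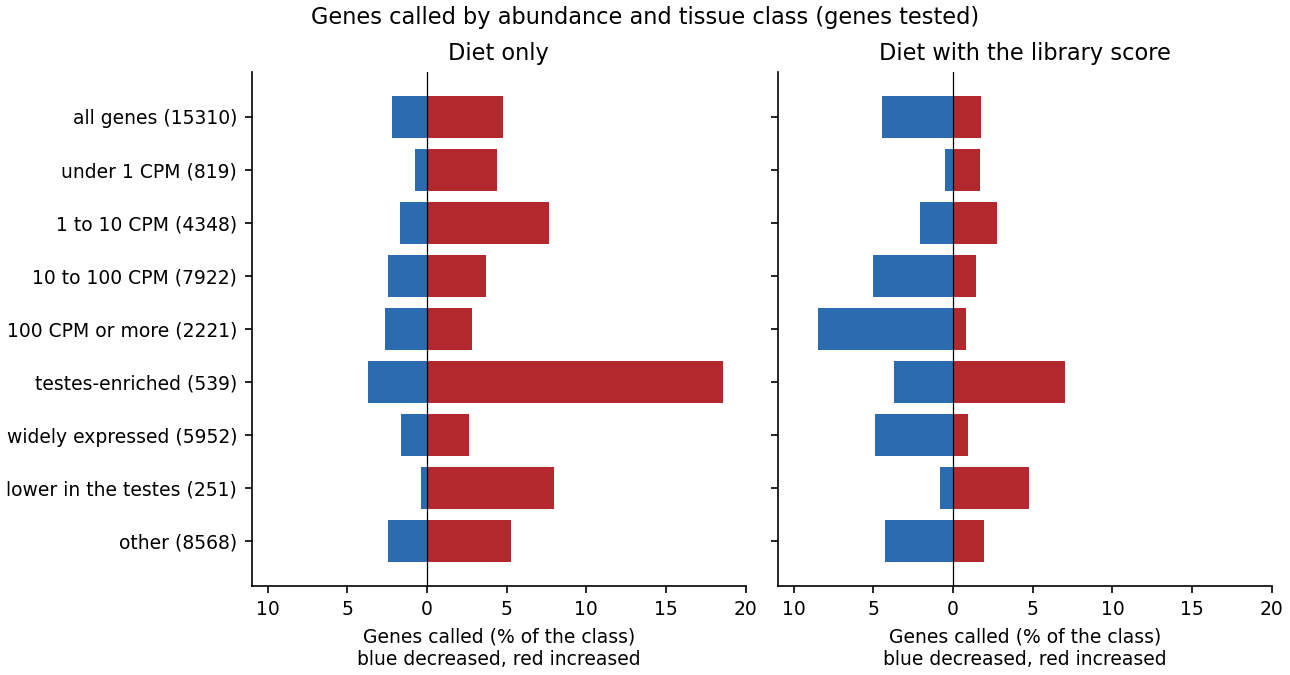
Share of genes increased (red, to the right) and decreased (blue, to the left) on the low plane in each abundance and tissue class, in % of the class, from the fit with diet only (left) and with the library score as covariate (right), with the genes tested in parentheses. Testes-enriched genes have the longest red bar on both sides, at 18.6% and 7.05%.

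Within the testes-enriched genes the direction turned with abundance. Of the 252 at 1 to 10 CPM, 56 were increased (22.2%) and 3 decreased, with a median log2 fold change of 0.40 and 75.4% above 0. Of the 197 at 10 to 100 CPM, 37 were increased and 8 decreased, with a median of 0.08. Of the 88 at 100 CPM or more, 7 were increased and 9 decreased, with a median of -0.34 and 34.1% above 0. The widely expressed genes did not share this order. Their medians were -0.18, 0.01 and 0.17 in the same abundance classes.

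The scarce testes-enriched genes stood higher in most low plane libraries. Deviations were taken from the mean log2 CPM of each gene, with both diets weighted equally. The median deviation of the 252 genes was -0.65, -0.22 and 0.21 (lowest, median and highest library) on the high plane. On the low plane it was -0.04, 0.33 and 0.52. The low plane libraries with a score above 4 had -0.01 (B31), 0.31 and 0.35, and B31 lay within the high plane range. These are 3 libraries, and the part of the score in this difference was not tested. The 88 abundant testes-enriched genes were different. Their median deviation was -0.01, 0.22 and 0.45 on the high plane and -0.53, -0.12 and 0.19 on the low plane, and the 3 low plane libraries with a score above 4 had -0.05, 0.12 and 0.19. As the abundant genes carry most of the reads, testes-enriched genes took 5.19% to 8.06% of the reads on the high plane and 4.29% to 6.93% on the low plane, with overlap. In whole tissue, fewer cells of a type and less RNA per cell cannot be told apart.

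The diet differences followed the dimension that sets the library score. The slope of each gene on that dimension was measured in the pituitary and arcuate nucleus only, for 13467 genes tested in all 3 tissues. Across these genes the testes log2 fold change correlated with the slope at r = -0.806, a description in which the genes share libraries. In 5 equal groups of genes by slope, from the most negative to the most positive, the numbers increased were 162, 219, 126, 1 and 0, and the numbers decreased 0, 7, 112, 144 and 26. The median log2 fold change passed from 0.44 in the first group to -0.84 in the last. Nearly all increased genes with a slope therefore lay in the 3 lower groups. Slopes were had for 128 of the 539 testes-enriched genes, since most were too scarce in the other tissues, and 30.1% of the increased genes had none.

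With the library score as covariate the balance turned towards decreases. By edgeR's test 269 genes were then increased (1.76%) and 678 decreased (4.43%). Of the 727 increased genes of the fit with diet only, 116 were called again, and 150 of the 330 decreased genes, while none was called in the opposite direction. The first slope group then had 10 increased and 237 decreased genes, and its median log2 fold change was -0.12. Decreases were the most frequent at 100 CPM or more, where 188 genes were decreased (8.46%) and 18 increased (0.81%). Increases were the most frequent at 1 to 10 CPM, at 2.78%. Widely expressed genes were decreased in 4.87% and increased in 0.907%. Testes-enriched genes were still increased more often than all genes, at 7.05% against 1.76%, and at 1 to 10 CPM 29 of 252 were increased (11.5%) and 1 decreased, with a median log2 fold change of 0.54. The median of those at 100 CPM or more was -0.07 in this fit, and 10 of 88 were decreased (11.4%) and none increased. The common biological coefficient of variation fell from 0.485 to 0.219 with the score in the model.

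**Figure D5:**
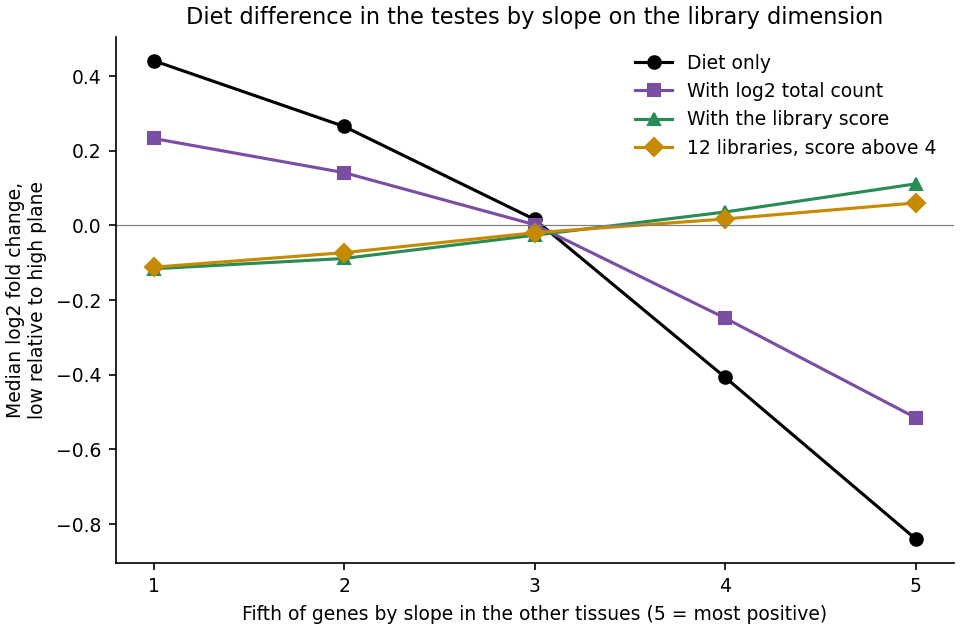
Median log2 fold change of the low relative to the high plane in 5 equal groups of genes by their slope in the other tissues, for 4 fits of the testes counts, 1 line each. The fit with diet only runs from 0.44 to -0.84, and the fits with the library score and over the 12 libraries with a score above 4 run the other way, from -0.12 and -0.11 to 0.11 and 0.06.

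Among the 12 libraries with a score above 4 (9 high plane, 3 low plane), a set chosen after the data were seen, no gene was increased (0%) or decreased (0%) at an FDR under 0.05 by edgeR's quasi-likelihood test over 15935 genes. An unadjusted p under 0.05 was reached by 2546 genes, and DESeq2 called 98 increased and 467 decreased. The genes called over all 18 libraries kept their sign in 719 of 726 increased and 330 of 330 decreased, with median log2 fold changes of 0.40 and -0.66. These libraries took part in choosing the genes, so the signs are not independent evidence. The scarce testes-enriched genes had a median log2 fold change of 0.42 here, and the abundant ones 0.01. The 6 libraries with a score below 4 hold 1 high plane library, so a test among them could hardly make a call. Of the genes called over all 18 libraries, 727 of 727 increased and 278 of 320 decreased genes kept their sign there. These 6 libraries also took part in choosing the genes.

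Total count moved with the diet as well. With the log2 total count as covariate no gene was increased (0%) and 2 were decreased (0.0131%) by edgeR's test, 1 of them ENSBTAG00000011677 (FDR 0.0386), while 1574 genes had an unadjusted p under 0.05. All 727 and 330 genes kept their sign, with median log2 fold changes of 0.71 and -0.82 and median standard errors of 0.28 and 0.27. The same libraries chose these genes, so the signs are not independent evidence. Counts thinned to 8586953 reads in every library still gave 737 increased and 254 decreased genes. The part of diet, total count and library score in these differences cannot be told apart where they move together.

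Complete separation of the diets was rare. In 14 genes every low plane library lay above every high plane library (0.0914%), and in 18 genes every one lay below (0.118%). Of the 14, 3 were testes-enriched and 3 widely expressed, and of the 18, 1 and 6. Without B42 the numbers were 35 and 79.

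Single libraries moved the number of calls more than the sizes of the differences. Increased genes numbered 3233 without B42, 1766 without B7, 1688 without B31 and 1171 without B50. They numbered 409 without B49, 336 without B26, 332 without B12, 246 without B32, 215 without A48, 196 without B5, 180 without B38, 154 without B21, 151 without B20 and 108 without B2. Decreased genes ranged from 50 without B2 to 1367 without B42. The genes called over all libraries kept their sign in each of these fits in which they were tested, and without B2 their median log2 fold changes were 0.82 and -0.86. Each of these fits reuses libraries that chose the genes, so the signs and sizes are not independent evidence. Without B42, 28.4% of the testes-enriched and 25.2% of the widely expressed genes were increased, against 21.2% of all genes, so testes-enriched genes stood less far above the background than with all libraries.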

How the data were processed

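The authors deposited for each library the raw counts of reads per Ensembl gene, 24616 identifiers without names. The submitters' processing notes name CASAVA 1.4, STAR, HTSeq and edgeR with no role or order, and the genome build and annotation are not given in the sources used here. No deposited column of values was left unused (0).

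Counts of the 18 testes libraries were filtered by edgeR's default rule on diet, scaled by TMM and tested for diet with the quasi-likelihood test (R 4.3.3, edgeR 4.0.16, Benjamini-Hochberg FDR under 0.05). Standard errors were derived from the log2 fold change and the F statistic. Library measures were compared by exact permutation of the diets (Python 3.11.15, scipy 1.17.1). The library score took the 200 genes with the largest positive slopes of log2 CPM (prior count 2) on the first dimension of a scaling by log2 fold change, within diets, averaged over pituitary and arcuate nucleus, of which 197 were tested in the testes. Tissue means used a pseudocount of 0.1 CPM. Alternatives used DESeq2 1.42.0, limma 3.58.1 (voom with quality weights), edgeR's exact test, other scalings and filters, covariates, thinning and leaving out libraries. Simulated testes counts were used only for edgeR's quasi-likelihood fit, with diet alone and with the main scaling dimension of the testes libraries as covariate. The other fits were not simulated, and the outcome is not reported here.

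Genes to describe were the 10 increased and 10 decreased with the smallest p-values, and by identifier the first 2 in each direction, as no names could be paired. The 3 genes in each direction with the largest change at 10 CPM or more, and the 3 testes-enriched genes in each direction with the smallest p, are also in that rule and are given as ranges. Gene lists for hormone synthesis, cell types and other pathways were not applied for the same reason. The classes, score and lists were chosen with earlier results of these data known.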

Additional observations from a re-analysis of the deposited data

Results flagged for a closer look

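Among 20 groups of values searched for a library far from the rest of its diet, 1 was found, and chance gives about 1 in 20. The high plane library B42 had a library score of -0.67, while the nearest high plane library had 4.19. Its testes-enriched share of reads (5.19%) was the lowest of the high plane. The 20 genes most abundant over all testes libraries took 15.4% of B42's reads, against 9.26% to 13.1% in other high plane libraries. The part of these features in its position was not tested.

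In 1 fit over all tissues, the diet effect differed between the testes and another tissue for 3 of the 4 genes given by identifier (edgeR's quasi-likelihood test, FDR adjusted over all genes). The log2 fold change of ENSBTAG00000011677 was lower in the testes than in the pituitary by -3.47 (FDR 0.00253) and than in the arcuate nucleus by -2.97 (FDR 0.0350). For ENSBTAG00000031778 the differences were -1.63 (FDR 0.000912) and -1.59 (FDR 0.00642). For ENSBTAG00000022466 the difference from the arcuate nucleus was 5.44 (FDR 0.0193), where its mean was 0.0335 CPM, and the size rests on few reads. Its difference from the pituitary was 2.71 (FDR 0.287), which did not pass. All 4 genes were chosen for a small p in the testes, which by itself favours such differences. The fit treated libraries of different tissues as independent, although the study took the tissues from the same calves.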

How the results depend on the processing

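Increased and decreased genes numbered 727 and 330 in the fit reported, 451 and 158 without a filter, 1282 and 690 with DESeq2, and 5472 and 5674 with limma voom and quality weights. Library totals without TMM factors gave 2025 increased genes. With the log2 total count as covariate 0 and 2 were called, with the library score 269 and 678, and with both 54 and 337. Among sets chosen after the data were seen, the 12 libraries with a score above 4 gave 0 and 0, or 98 and 467 with DESeq2. The log2 total count without B42 gave 0 and 3. The 6 libraries with a score below 4 hold 1 high plane library. Over these 6, the increased and decreased genes of the fit reported had median log2 fold changes of 0.87 and -0.41. RLE scaling, the stricter filter, thinning and edgeR's exact test stayed within 1.5 times in both directions. The cause was not tested.

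Leaving out 1 library at a time gave 108 to 3233 increased and 50 to 1367 decreased genes, a difference in mean log2 total of -0.57 to -0.37, and a difference in mean library score of -3.03 to -2.10. The score difference kept its call with 100 genes and after thinning. The log2 fold changes of the 4 genes given by identifier kept their sign throughout, in libraries that had served to choose them. All but ENSBTAG00000011677 lost their call with the log2 total count as covariate. With a cutoff of 2 log2 units, 13.8% of 1093 testes-enriched genes were increased. With classes from the high plane only, 10.8% of genes under 1 CPM were increased, against 4.4% with classes from both diets. A class cut on 1 of the diets compared favours increases at the low end by itself. The filter can also keep such genes through their level on the low plane.

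The diets were given to different calves, so they could not be paired. The study took the tissues from the same calves, but the replicate numbers are library numbers and the labels name no calf. The fit over all tissues therefore took no account of calves shared between tissues. Depth limits the genes under 1 CPM most. Gene names, cell-type markers and sequences were not analysed here, and the alternatives for gene lists were not run.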

Other observations

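The 3 increased genes with the largest change at 10 CPM or more were all testes-enriched, with log2 fold changes of 1.48 to 1.73 and FDR of 0.0218 to 0.0230 by edgeR's quasi-likelihood test. None kept an FDR under 0.05 with the library score as covariate. The 3 decreased genes chosen likewise had log2 fold changes of -3.53 to -2.62, and 2 kept it. Of the testes-enriched genes with the smallest p-values, the 3 decreased had means of 55.5 to 860.2 CPM and log2 fold changes of -2.09 to -0.83, and the 3 increased had means of 2.61 to 24.97 CPM and log2 fold changes of 1.15 to 1.61. All 6 kept an FDR under 0.05 with the score by the same edgeR test.

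The spread within the diets was uneven. The median SD of log2 CPM over genes was 0.436 on the high plane, 0.245 there without B42, and 0.580 on the low plane. The share of tested genes with no read was 0.483% to 2.38% in the 5 low plane libraries with a score below 4, 1.54% in B42, and at most 0.0523% in the others.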
